A study of Mus musculus with 63 samples.

Results

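This comparison set sorted pancreatic β cells of BTBR mice that carry 1 ob allele (9 libraries) against those of adult ICR mice (21 libraries), 30 of the 63 libraries in the series. Members were taken from the sample labels alone: titles ending in T2H for the BTBR ob/+ group and the adult wild-type ICR titles for the other. Every mouse in both groups carried a Cre-dependent Cherry reporter (Cherry/+) and Ins2-Cre, and β cells were sorted for red fluorescence. ICR adults were Ins2-Cre/+ throughout, whereas 2 of the 9 ob/+ mice (libraries 4 and 5, both male and 53 days old) were Ins2-Cre/Ins2-Cre. The ob/+ mice were 53 to 179 days old (median 112; 4 female, 5 male) and the ICR adults 84 to 364 days (median 158; 11 female, 10 male). Blood glucose ran from 103 to 271 mg/dl (median 134) in ob/+ and from 103 to 190 mg/dl (median 134) in ICR. RNA came from TRIzol in 8 of the 9 ob/+ libraries and from a Qiagen column in library 9, whose mouse also had the highest glucose (271 mg/dl) and weight (60.4 g) of its group; its genotype is known here from the label alone. Of the ICR libraries 17 were Qiagen and 4 were TRIzol. These 4 were all female, and 3 of them came from mice aged 289 days. Strain and ob genotype differed together, so their parts in any difference cannot be told apart. Nothing in the labels ties libraries of a group to separate litters, and p-values measure a spread between libraries. In the main fit that spread was taken within groups over all 63 libraries of the series, not over these 30 alone.

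BTBR is an inbred mouse strain that becomes severely diabetic when it lacks leptin, because its β cells do not keep up with insulin resistance. The ob allele is a null allele of Lep, the gene for the fat-cell hormone leptin. Heterozygotes still make leptin, and the labels give the group the same disease state as wild type. ICR is an outbred stock with large litters and is used here as the healthy adult. β cells make and fold very large amounts of proinsulin, and lean on the unfolded protein response and on the integrated stress response. In the latter, phosphorylated eIF2α slows general translation and lets ATF4 be made, which then switches on genes for amino acid synthesis and transport.

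Total expected counts ran from 23894167 to 65518931 in ob/+ and from 28402805 to 44485028 in ICR. Ins1 and Ins2 together held 13.6% to 58.8% of counts in ob/+ (median 33.4%) and 18.9% to 56.7% in ICR (median 35.7%). The difference in that share was 0.16 on the log2 scale with extraction held fixed (exact permutation within extraction over 8910 arrangements, two-sided p = 0.569). Acinar markers, 25 genes of the digestive-enzyme cells around the islets, held 0.146% to 39.9% of counts in ob/+ (median 3.54%) and 0.0364% to 34.5% in ICR (median 9.34%), with none of them at 0. That share differed by 0.54 on the log2 scale (same test, p = 0.741), by 2.58 among TRIzol libraries alone (exact, p = 0.186), by -0.14 with extraction ignored (permutation p = 0.897) and by -0.85 without ICR library 12 (exact, p = 0.556), so its direction was not settled. The 3 ob/+ libraries above 20% acinar were numbers 4, 5 and 8. In ob/+ libraries 4 and 5 acinar markers (31.4% and 39.9%) held more counts than Ins1 and Ins2 (20.7% and 13.6%). ICR library 9 was alike, at 34.5% acinar and 18.9% insulin, and in the remaining libraries the insulin share was the larger. Markers of alpha, delta, duct, endothelial, stromal, immune, Schwann and erythroid cells were each measured too. The myeloid share ran from 0.00372% to 0.0486% in ob/+ (median 0.00967%, the highest in library 1) and from 0.00244% to 0.0246% in ICR (median 0.00906%). It differed by 0.34 on the log2 scale (exact, p = 0.536), and by 0.12 without library 1 (p = 0.794). As a share of library size scaled with TMM factors, the scale of the levels below, the myeloid difference was 0.87 (exact, p = 0.0464). On that scale the insulin and acinar differences were also larger, at 0.70 and 1.07 (exact, p = 0.0144 and 0.553). In bulk libraries, fewer cells of a type and less RNA per cell cannot be told apart.

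Of 16092 genes tested, 836 (5.2%) differed at an adjusted p below 0.05 in edgeR's quasi-likelihood test with a term for extraction: 3.37% of the genes tested were higher in ob/+ and 1.83% (294 genes) lower. The median log2 fold change over all genes was 0.00. The extraction term itself was called for 2793 genes (17.4%). Within the 12 TRIzol libraries 93 genes were called (67 higher, 26 lower), and 82 of them were among the 836. There 832 of 835 tested calls kept their direction. With terms for sex and age 117 were called, 109 of them shared. Without ob/+ library 9, the only Qiagen library of its group, 386 were called, and without ICR library 13 (TRIzol, 289 days) 551. Without the extraction term the split changed to 498 higher and 520 lower, and with limma-voom it was 446 and 493.

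A group of 29 genes, 25 higher and 4 lower, was called in all of 7 alternatives, chosen as a group after their values were seen: TRIzol only, sex and age, a term for acinar share, no library above 20% acinar, no library 9, DESeq2 and limma-voom. Lefty1, a secreted inhibitor of Nodal signalling, led them. Levels here are in CPM, counts scaled to a common library size with TMM factors and not corrected for gene length. That of Lefty1 ran from 0.0219 to 6.23 CPM (median 3.83) in ob/+ and from 0 to 0.0575 CPM (median 0) in ICR. The fitted difference was 8.18 ± 0.74 (SE), adjusted p = 8.63e-12 in edgeR's test. In 8 of the 9 ob/+ libraries it lay above every ICR library. The exception was library 7 at 0.0219 CPM, inside the ICR range.

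The same kind of split, a few ob/+ libraries at the ICR level and the rest clearly above it, recurred in Paip1 and Rbm45. The low libraries were not the same ones in each gene. In Cpb2 and Nab1 some ob/+ libraries were also at or below the ICR level, but the values were graded. For Cpb2 the lowest ob/+ library above the ICR range, library 2, was at 6.61 CPM, close to the ICR maximum of 5.32 CPM. How far these mice were backcrossed to BTBR is not given in the sources used here, and the cause of the low values was not tested. Paip1, a poly(A)-binding-protein partner that promotes translation, ran from 2.46 to 48.4 CPM (median 22.3) in ob/+ and from 2.01 to 7.81 CPM (median 4.75) in ICR (log2 difference 2.52 ± 0.29 (SE), adjusted p = 1.68e-08, edgeR). Libraries 1 and 7 were inside the ICR range, at 2.46 and 2.78 CPM, and the next lowest, library 6, was at 16.1 CPM. For Rbm45, an RNA-binding protein, the low libraries were 3 and 4, at 1.36 and 1.90 CPM. Its range was 1.36 to 15.97 CPM (median 10.1) in ob/+ and from 0.552 to 2.69 CPM (median 1.502) in ICR (2.73 ± 0.36 (SE), adjusted p = 8.19e-07 on the log2 scale, edgeR). Cpb2, a plasma carboxypeptidase that slows clot breakdown, had libraries 4 and 7 inside the ICR range at 3.21 and 1.51 CPM, against 1.51 to 16.7 CPM (median 8.86) in ob/+ and from 0.591 to 5.32 CPM (median 2.02) in ICR (2.30 ± 0.33 (SE), adjusted p = 6.03e-06, edgeR). Nab1, a corepressor of EGR factors, was lowest in library 3 at 6.63 CPM, under the ICR minimum of 7.24 CPM, and inside the ICR range in library 9 at 18.36 CPM, while its other ob/+ libraries reached 56.4 CPM (1.34 ± 0.25 (SE), adjusted p = 0.000681, edgeR). No single ob/+ library was at the ICR level for all of these genes.

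**Figure D1:**
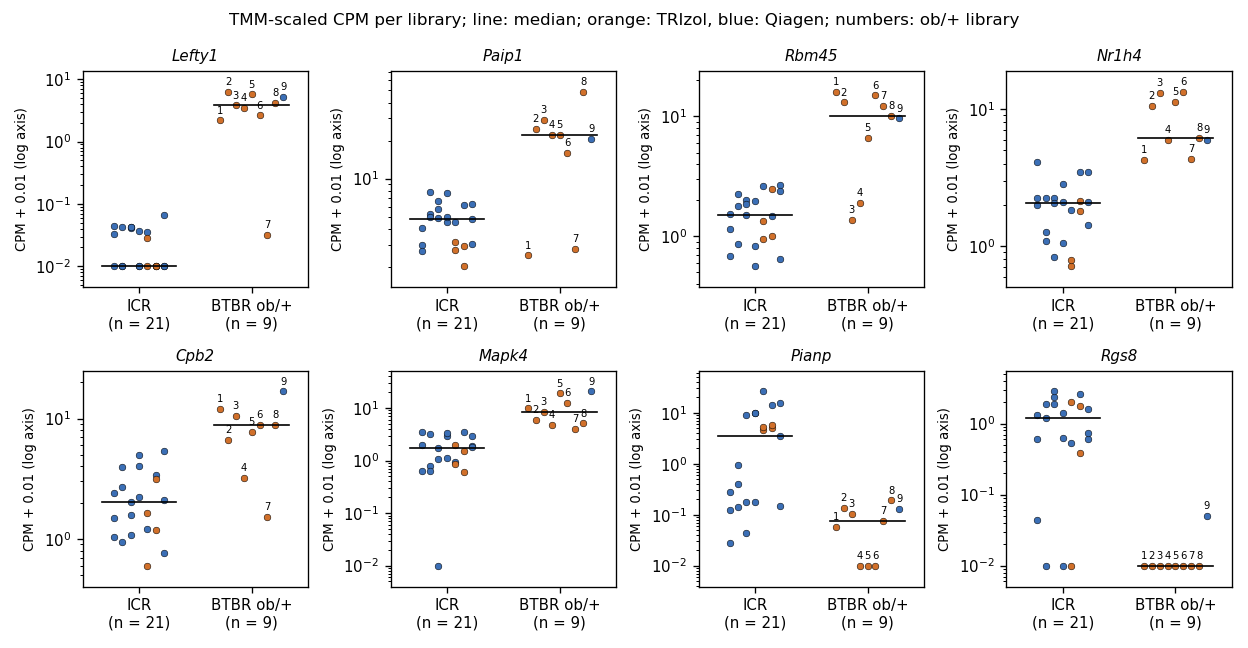
Expression of 8 genes per library on a log axis (TMM-scaled CPM plus 0.01), ICR adults on the left and BTBR ob/+ on the right, with the group median as a line and ob/+ libraries numbered. Library 7 sits with ICR for Lefty1, libraries 1 and 7 for Paip1, and libraries 3 and 4 for Rbm45, whereas Nr1h4 and Mapk4 do not overlap.

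Only 3 of the 16092 genes (0.0186%) had all 9 ob/+ libraries outside the range of all 21 ICR libraries, all of them higher in ob/+, and 2 of these are named for that reason after their values were seen. Nr1h4, the bile acid receptor FXR, ran from 4.24 to 13.3 CPM (median 6.17) in ob/+ and from 0.704 to 4.10 CPM (median 2.06) in ICR (2.41 ± 0.31 (SE), adjusted p = 6.79e-07, edgeR). Mapk4, an atypical MAP kinase on chromosome 18, ran from 3.98 to 20.7 CPM (median 8.45) in ob/+ and from 0 to 3.52 CPM (median 1.76) in ICR (2.71 ± 0.41 (SE), adjusted p = 3.26e-05). Mapk4 and Nr1h4 were also called within TRIzol (adjusted p = 0.0229 and 0.0105, edgeR).

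A pair of low genes was nearly unseen in ob/+. Rgs8, a regulator of G-protein signalling, had 1 count in all 9 ob/+ libraries together and 863 in ICR, where 18 of 21 libraries had a count. That is a level 341-fold lower in ob/+ (95% counting interval 61.1 to 13490, counting error only), with an adjusted p of 4.73e-06 in edgeR's test. Pianp, a partner of the immune receptor PILRα, held 20 counts in 6 of the ob/+ libraries and 4066 in ICR. It ran from 0 to 0.181 CPM in ob/+ and from 0.0180 to 26.05 CPM in ICR (-6.13 ± 1.04 (SE), adjusted p = 0.000170), so ICR itself was split into high and low libraries. Pianp overlaps Cops7a in the annotation, and the libraries carry no strand.

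Among genes of at least 10 CPM whose ob/+ libraries all lay on one side of the ICR median, the largest rise was in Dio1, the deiodinase that activates thyroid hormone in liver and kidney. It ran from 0.802 to 115.1 CPM (median 6.38) in ob/+ and from 0 to 1.52 CPM (median 0.439) in ICR (5.23 ± 0.48 (SE), adjusted p = 1.44e-11, edgeR). Library 9 held the highest value, and the ob/+ mean reached 10 CPM only with it. Of the other ob/+ libraries only numbers 4 and 6 were above 10 CPM. Libraries 3 and 7, below 1 CPM, were inside the ICR range. Without library 9 the adjusted p was 1.50e-06. Within TRIzol alone the fold was 3.77 on the log2 scale and missed the threshold (adjusted p = 0.0671).

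Oxtr, the oxytocin receptor, ran from 7.03 to 45.1 CPM (median 25.9) in ob/+ and from 2.23 to 22.1 CPM (median 5.64) in ICR (1.85 ± 0.36 (SE), adjusted p = 0.00112, edgeR). Spc25, named for the kinetochore subunit it encodes, stood at 224.6 to 886 CPM (median 487) in ob/+ and from 72.6 to 459.5 CPM (median 155.5) in ICR (1.72 ± 0.29 (SE), adjusted p = 0.000170). Its levels are those of an abundant gene, and it lies 4859 bases from G6pc2, the islet glucose-6-phosphatase subunit, which stood at 1613 to 4304 CPM (median 2855) in ob/+ and from 1389 to 3763 CPM (median 2266) in ICR (0.55 ± 0.19 (SE), adjusted p = 0.0657). Reads from either strand are counted alike, and whether reads run through from G6pc2 was not tested. Lgmn, the lysosomal protease legumain, ran from 35.4 to 137 CPM (median 77.9) in ob/+ and from 12.8 to 75.9 CPM (median 24.6) in ICR (1.16 ± 0.30 (SE), adjusted p = 0.0170). Rgs2 (1.49 ± 0.40 (SE), adjusted p = 0.0188) and the guanylin receptor gene Gucy2c (1.24 ± 0.38 (SE), adjusted p = 0.0431) were the less secure of the 12 largest rises. Rgs2 missed the threshold without library 8 or 9 (up to 0.0598), within TRIzol (0.260), with sex and age (0.176), and without libraries above 20% acinar, where its difference was 0.84 (0.228). The call was lost for Gucy2c without any of 18 single libraries (up to 0.272). The other 5 of the 12 belong to the integrated stress response list described next.

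The integrated stress response list held 25 genes, and 13 of them (Chac1, Asns, Phgdh, Psat1, Mthfd2, Slc3a2, Cebpg, Eif4ebp1, Trib3, Aldh1l2, Slc7a11, Atf4 and Shmt2) rose in ob/+ while none fell, against 3.37% of all genes that rose. The fitted fold was above 0 for all 25, and the list's median was 0.88 on the log2 scale against 0.00 over all genes. The list is a mix of ATF4 itself, amino acid enzymes and carriers, and feedback regulators. In TRIzol libraries alone 8 members were called and the median was 1.10, against 0.04 over all genes. With terms for sex and age 7 were called. For mice aged 80 to 230 days it was 6, with a median of 0.57. Without libraries above 20% acinar it was 11 (median 0.69), and without library 9 it was 11 (median 0.90).

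**Figure D2:**
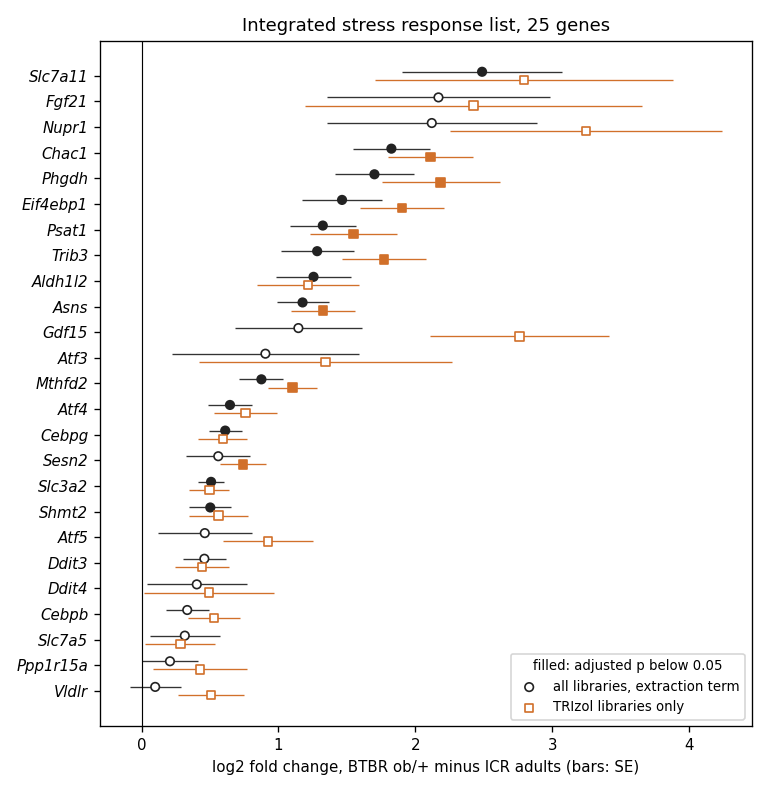
Log2 fold change (ob/+ minus ICR, bars are SE) of the 25 integrated stress response genes in all libraries with an extraction term (circles) and in the 12 TRIzol libraries (squares), filled where the adjusted p is below 0.05. All 25 circles lie to the right of 0, and 13 of them are filled.

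Promoters of called members are shown because these genes moved together and ATF4 is known to bind a short composite element in such promoters. The sequences are the 250 bases before the start site from RefSeq (GRCm38.p6), 5′ to 3′ on the gene's strand, with each match to TGATGNAA or its reverse complement in capitals. Chac1 is at chr2:119350992-119351241 (plus strand), Asns at chr6:7693210-7693459 (minus strand) and Slc7a11 at chr3:50443614-50443863 (minus strand).
Chac1: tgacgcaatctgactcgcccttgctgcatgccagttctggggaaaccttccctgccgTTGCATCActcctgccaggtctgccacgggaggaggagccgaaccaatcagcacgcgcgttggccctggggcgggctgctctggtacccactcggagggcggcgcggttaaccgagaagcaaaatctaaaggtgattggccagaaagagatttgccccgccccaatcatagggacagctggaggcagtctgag
Asns: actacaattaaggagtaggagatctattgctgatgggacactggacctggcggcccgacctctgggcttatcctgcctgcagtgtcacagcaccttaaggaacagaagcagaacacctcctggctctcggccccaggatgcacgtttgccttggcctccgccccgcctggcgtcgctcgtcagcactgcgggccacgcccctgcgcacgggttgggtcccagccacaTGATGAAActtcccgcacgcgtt
Slc7a11: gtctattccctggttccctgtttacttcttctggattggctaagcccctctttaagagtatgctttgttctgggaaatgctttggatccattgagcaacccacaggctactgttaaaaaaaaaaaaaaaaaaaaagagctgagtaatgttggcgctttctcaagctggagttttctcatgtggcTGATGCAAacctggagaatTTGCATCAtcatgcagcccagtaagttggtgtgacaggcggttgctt
The match began 193 bases before the start in Chac1, 23 bases before it in Asns, and 66 and 47 bases before it in Slc7a11. Of the 13 called members 11 had a promoter in the table and 3 of these 11 (27.3%) held a match on either strand. Of the 12 members not called 11 had a promoter and 4 (36.4%) held one: Atf3, Nupr1, Vldlr and Fgf21. Among all tested genes with a promoter in the table, 338 of 12755 (2.65%) held a match. A match is a description of letters and no evidence of binding, and its share was no higher in called than in other members of the list.

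The 3 enzymes of serine synthesis were each called; the third, Psph, is not in the list and was read after the other values were seen. Phgdh, the first step of the pathway, ran from 30.29 to 198 CPM (median 87.7) in ob/+ and from 11.2 to 102 CPM (median 53.4) in ICR (1.70 ± 0.29 (SE), adjusted p = 0.000170, edgeR). Library 5 was highest and library 7 lowest, and 8 of 9 ob/+ libraries exceeded the ICR median. Psat1, the second step, stood at 8.26 to 31.9 CPM (median 21.3) in ob/+ and from 5.01 to 18.4 CPM (median 10.6) in ICR (1.32 ± 0.24 (SE), adjusted p = 0.000484); the groups overlapped, with library 2 below the ICR median. In TRIzol libraries the 2 differences were 2.18 and 1.55 (adjusted p = 0.0190 and 0.0190). The difference of Psph, the last step, was 0.61 ± 0.11 (SE), adjusted p = 0.000657, and 0.55 within TRIzol (adjusted p = 0.101). With sex and age as terms Psat1 stayed called (0.0472) and Phgdh did not (0.115). Of the mitochondrial folate enzymes downstream of serine, Mthfd2 rose, from 58.2 to 97.6 CPM (median 70.8) in ob/+ and from 28.7 to 79.03 CPM (median 41.6) in ICR (0.88 ± 0.16 (SE), adjusted p = 0.000523). Aldh1l2 did as well (1.26 ± 0.28 (SE), adjusted p = 0.00512), and Shmt2 only narrowly (0.50 ± 0.15 (SE), adjusted p = 0.0395), lost without any of 6 single libraries (up to 0.0919). Pycr1, the proline synthesis enzyme, which the list does not hold and which is one of the 29 genes above, ran from 59.9 to 149 CPM (median 83.9) in ob/+ and from 25.8 to 110.6 CPM (median 46.1) in ICR (1.06 ± 0.17 (SE), adjusted p = 4.97e-05).

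Asns makes asparagine from aspartate and is a standard readout of ATF4. It ran from 155.3 to 338 CPM (median 204.3) in ob/+ and from 65.1 to 177 CPM (median 108.6) in ICR (1.18 ± 0.19 (SE), adjusted p = 5.73e-05, edgeR). Every ob/+ library exceeded the ICR median, and 3 of 9 lay inside the ICR range. Slc3a2, the heavy chain of the large amino acid carriers, rose (0.51 ± 0.10 (SE), adjusted p = 0.000999), while its light chain Slc7a5 gave 0.32 ± 0.26 (adjusted p = 0.485). The cystine carrier Slc7a11 was low, at 0.0422 to 6.23 CPM (median 1.76) in ob/+ and from 0 to 2.87 CPM (median 0.398) in ICR (2.49 ± 0.58 (SE), adjusted p = 0.00791), and lost its call without library 9 (adjusted p = 0.0845).

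Chac1, which breaks down glutathione, had the largest fold among the called members above 10 CPM. It ran from 22.5 to 85.02 CPM (median 40.7) in ob/+ and from 8.402 to 64.5 CPM (median 14.7) in ICR (1.82 ± 0.28 (SE), adjusted p = 3.26e-05, edgeR), with all 9 ob/+ libraries above the ICR median and 1 ICR library at 64.5 CPM. In TRIzol it was 2.11 ± 0.31 (adjusted p = 0.00230), and it stayed called with sex and age (0.00233). Trib3, the pseudokinase that feeds back on ATF4, ran from 13.4 to 36.6 CPM (median 21.6) in ob/+ and from 4.28 to 25.18 CPM (median 9.11) in ICR (1.28 ± 0.27 (SE), adjusted p = 0.00247). Eif4ebp1, a brake on cap-dependent translation, ran from 18.45 to 54.6 CPM (median 40.8) in ob/+ and from 4.74 to 48.5 CPM (median 17.1) in ICR (1.46 ± 0.30 (SE), adjusted p = 0.00178). Extraction itself was called for Chac1 (log2 -0.83 for TRIzol, adjusted p = 0.00363) and Eif4ebp1 (-0.66, 0.0261).

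**Figure D3:**
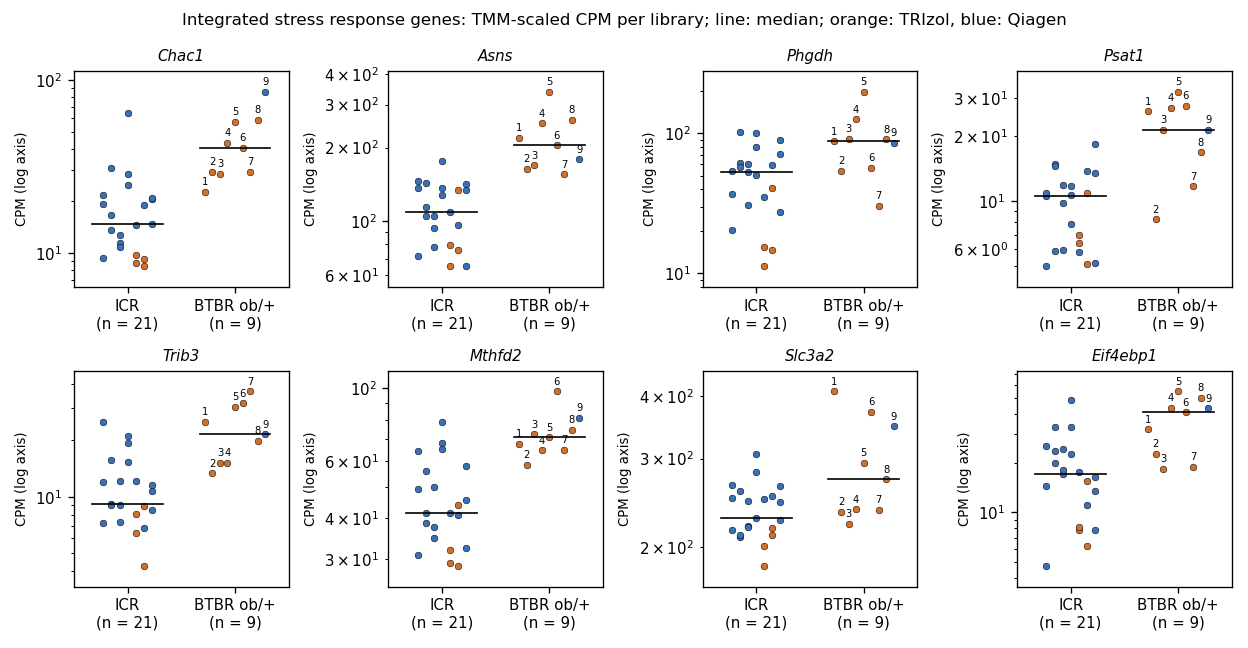
Levels of 8 integrated stress response genes per library (TMM-scaled CPM, log axis), ICR on the left and numbered ob/+ libraries on the right, orange for TRIzol and blue for Qiagen, with the group median as a line. The ob/+ median is above the ICR median in each panel, and the groups overlap in each.

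Atf4 itself, whose protein is controlled mainly at translation, rose by 0.65 on the log2 scale, from 119.5 to 301 CPM (median 197) in ob/+ and from 89.9 to 208 CPM (median 141.3) in ICR (0.65 ± 0.16 (SE), adjusted p = 0.0104, edgeR), but missed the threshold without library 9 (0.0633). Its partner Cebpg rose (0.61 ± 0.12 (SE), adjusted p = 0.00152). Several regulators and secreted factors of the list missed the threshold. Ddit3, the gene for CHOP, gave 0.46 ± 0.16 (adjusted p = 0.0710). Ppp1r15a, the phosphatase subunit that ends the response, gave 0.21 ± 0.21 (0.586). Atf3 gave 0.90 ± 0.68 (0.450), and the secreted factors Gdf15 and Fgf21 gave 1.15 ± 0.46 and 2.17 ± 0.81 (0.124 and 0.0971).

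Counted per library, 16 to 24 of the 25 genes (median 21) were above the ICR median in ob/+, and 4 to 21 (median 12) in ICR. The single Qiagen ob/+ library had 21, equal to the highest of the 17 Qiagen ICR libraries, which ran from 4 to 21 (median 14). The 4 TRIzol ICR libraries had 4, 4, 5 and 10, and those with 4 or 5 were from the 289-day mice. Among Qiagen ICR libraries that of the 364-day mouse had 18, and those of the mice aged 84 to 85 days had 10, 17 and 7. The ob/+ libraries above 20% acinar had 20, 24 and 23, and 2 of those 3 came from the youngest mice, at 53 days. Library 9, at 0.146% acinar, had 21 and library 7, at 0.205%, had 17. The fitted median with an acinar term was 0.76, with 12 genes called. Age, sex, extraction and strain cannot be fully told apart in the TRIzol set.

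**Figure D4:**
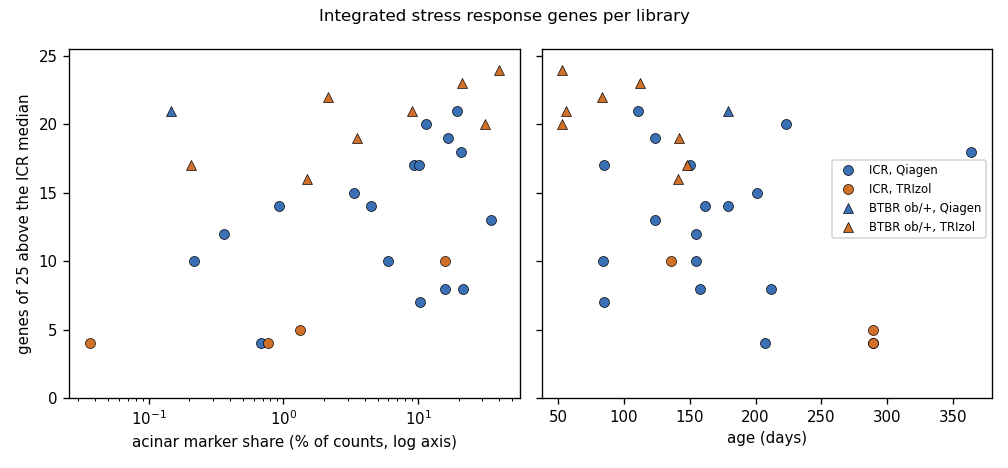
Number of the 25 integrated stress response genes above the ICR median in each library, against the acinar marker share (left, log axis) and the age of the mouse (right). The ob/+ libraries (triangles) lie between 16 and 24 genes, and the ICR libraries (circles) between 4 and 21.

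Chaperones and degradation factors of the endoplasmic reticulum rose in part: 6 of 25 (Herpud1, Dnajb11, Erp44, Dnajc3, Derl3 and Edem1) were higher and 1, Hyou1, was lower, with a median of 0.36, against 3.37% and 1.83% of all genes. Without the extraction term 2 were higher and 1 lower, and with sex and age none was called. Herpud1, a component of the degradation complex, ran from 219 to 677 CPM (median 444) in ob/+ and from 143.1 to 468 CPM (median 216.03) in ICR (1.03 ± 0.21 (SE), adjusted p = 0.00164, edgeR) and was also called in TRIzol libraries (adjusted p = 0.0372). Dnajc3, which restrains the eIF2α kinase PERK, ran from 367 to 1183 CPM (median 466) in ob/+ and from 285.8 to 914 CPM (median 368) in ICR (0.68 ± 0.19 (SE), adjusted p = 0.0261). The calls of Dnajb11, Erp44 and Dnajc3 were lost without library 9 (adjusted p = 0.292, 0.191 and 0.226). Hyou1, the large HSP70-like chaperone, went the other way, from 23.54 to 261 CPM (median 227) in ob/+ and from 168 to 778 CPM (median 321) in ICR (-1.24 ± 0.36 (SE), adjusted p = 0.0315). Every ob/+ library was below its ICR median, but 4 single omissions ended the call, with an adjusted p of up to 0.103 without library 9.

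The most abundant called genes included others of the secretory route. Serp1, which stabilizes membrane proteins at the translocon, ran from 527.7 to 1082 CPM (median 676) in ob/+ and from 278.9 to 777 CPM (median 428) in ICR (0.74 ± 0.15 (SE), adjusted p = 0.00238, edgeR); it overlaps Eif2a. Tmed3, a cargo receptor between the endoplasmic reticulum and the Golgi, stood at 359.9 to 1209 CPM (median 527.95) in ob/+ and from 246 to 946 CPM (median 343) in ICR (0.84 ± 0.20 (SE), adjusted p = 0.00972) and was lost without library 9 (0.0990). Mcfd2, a cargo receptor subunit, and Rab1a, the GTPase of the same step, were among the 29 genes (0.67 ± 0.11 (SE), adjusted p = 0.000161 and 0.55 ± 0.10 (SE), adjusted p = 0.000418). Cst3, the protease inhibitor cystatin C, rose (0.53 ± 0.15 (SE), adjusted p = 0.0264; 0.140 without library 9). Ckb, brain creatine kinase, fell from an ICR median of 482 to 269.9 CPM (-0.67 ± 0.21 (SE), adjusted p = 0.0484), a call lost under 16 single omissions (up to 0.0898).

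Cytosolic ribosomal protein genes were higher as a group of small shifts in the fit with an extraction term: 14 of 50 rose (3.37% of all genes did), none fell, and all 50 fitted folds were above 0, with a median of 0.46. Rplp1 ran from 52.5 to 161.9 CPM (median 87.4) in ob/+ and from 38.97 to 126 CPM (median 60.5) in ICR (0.83 ± 0.19 (SE), adjusted p = 0.00739, edgeR) and was the only member called within TRIzol (0.0143). Rpl4 ran from 199.7 to 602 CPM (median 291) in ob/+ and from 187 to 379 CPM (median 249) in ICR (0.56 ± 0.13 (SE), adjusted p = 0.00667). Without library 9, 1 member was called, and the median was 0.35. In that library all 50 genes were above the ICR median, while ob/+ libraries 1 and 7 had 3 and 2. The TRIzol ICR libraries had 0 to 3 and the Qiagen ICR libraries 1 to 50. Without the extraction term no ribosomal gene was called and the median was 0.09, and with limma-voom 26 were called. Nuclear subunits of oxidative phosphorylation followed the same pattern, with 6 of 44 higher (Sdhc, Uqcrfs1, Cyc1, Cox5a, Cox5b and Atp5c1), none lower and a median of 0.31. The share of all genes that rose was 3.37%. Without the extraction term no member was called and the median was 0.02. Nor was any called without library 9 (adjusted p for Sdhc 0.0546) or within TRIzol.

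**Figure D5:**
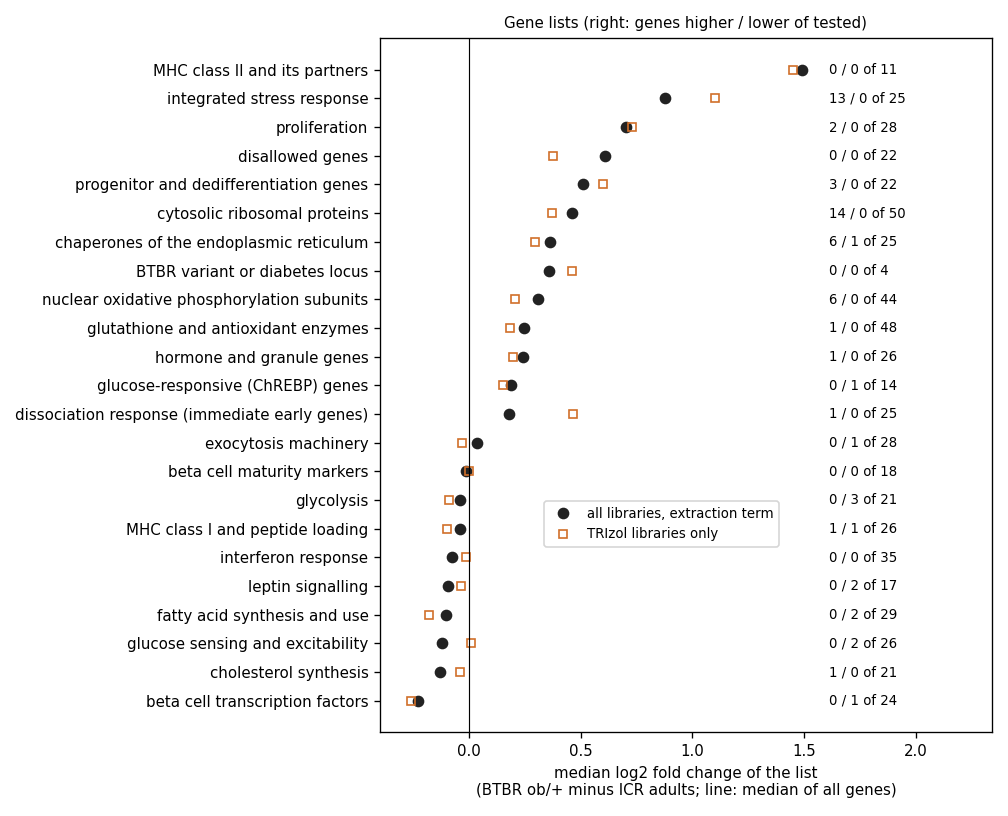
Median log2 fold change (ob/+ minus ICR) of each gene list in all libraries (circles) and in TRIzol libraries only (squares), with the number of genes higher and lower of those tested at the right and the median of all genes as a line. Integrated stress response and ribosomal genes have the most calls, and β cell maturity, interferon and MHC class II lists have none.

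Among genes of β cell identity calls were no more frequent than the 5.2% over all genes. None of 18 maturity markers was called (median -0.01), and among 24 β cell transcription factors 1 was, Mnx1, a homeodomain factor of β cell fate, with 6 of 24 fitted folds above 0 and a median of -0.23. Mnx1 ran from 10.02 to 28.03 CPM (median 13.7) in ob/+ and from 15.4 to 41.09 CPM (median 24.37) in ICR (-0.81 ± 0.24 (SE), adjusted p = 0.0344, edgeR), and missed the threshold without any of 5 single libraries (up to 0.108). Without the extraction term 5 of the 24 factors were lower. Ins1 gave 0.73 ± 0.23 (adjusted p = 0.0517), just outside the threshold, and Ins2 0.60 ± 0.26 (0.147). With an acinar term Ins1 and G6pc2 were called, both higher (adjusted p = 0.0446 and 0.0428). Ucn3, the peptide that marks mature mouse β cells, was at 308 to 882 CPM (median 609.9) in ob/+ and from 471 to 1077 CPM (median 754) in ICR (-0.27 ± 0.26 (SE), adjusted p = 0.574). Mafa gave -0.66 ± 0.38 (0.301), Pdx1 -0.22 ± 0.17 (0.457) and Nkx6-1 -0.29 ± 0.19 (0.373). Misses of the threshold do not show that these levels were alike, given errors of 0.17 to 0.38 for the transcription factors.

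Other parts of the β cell programme had 1 or 2 calls a list, near the 5.2% over all genes. Of 26 hormone and granule genes 1 rose, Nucb2, the nesfatin precursor (0.80 ± 0.23 (SE), adjusted p = 0.0271, edgeR; 0.183 without library 9). Of 28 exocytosis genes 1 fell, Doc2b, which had 2 counts in ob/+ and 75 in ICR, a level 14.8-fold lower (95% counting interval 3.96 to 125) at under 1 CPM in every library. Of 26 glucose sensing and excitability genes 2 fell. Kcnh2, the hERG potassium channel that helps end an action potential, ran from 8.75 to 16.5 CPM (median 12.05) in ob/+ and from 14.97 to 33.6 CPM (median 23.53) in ICR (-0.64 ± 0.16 (SE), adjusted p = 0.0138), and it was also called in TRIzol libraries (0.0340). Gipr, the receptor for the incretin GIP, ran from 8.53 to 59.5 CPM (median 35.8) in ob/+ and from 17.3 to 103.5 CPM (median 41.9) in ICR (-1.29 ± 0.33 (SE), adjusted p = 0.0141; 0.0525 without library 9). The glucose transporter gene Slc2a2 gave -0.02 ± 0.23 (0.979) and Glp1r -0.34 ± 0.49 (0.731).

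Of 21 glycolysis genes 3 fell and none rose (1.83% of all genes fell). Aldoc, aldolase C, ran from 6.86 to 14.7 CPM (median 11.4) in ob/+ and from 10.1 to 40.2 CPM (median 24.2) in ICR (-0.96 ± 0.21 (SE), adjusted p = 0.00492, edgeR), with all 9 ob/+ libraries below the ICR median, and was called in TRIzol libraries too (0.0143). Eno2, the neuron-type enolase, fell (-0.88 ± 0.20 (SE), adjusted p = 0.00708), as did Pfkm, muscle phosphofructokinase (-0.42 ± 0.12 (SE), adjusted p = 0.0326), which lost its call under 5 single omissions (up to 0.0886). In the fatty acid list 2 of 29 fell. Srebf1, the master regulator of fatty acid synthesis, ran from 51.6 to 102 CPM (median 83.4) in ob/+ and from 89.1 to 245.02 CPM (median 137) in ICR (-0.84 ± 0.17 (SE), adjusted p = 0.00196), every ob/+ library under the ICR median. Scd2, a stearoyl-CoA desaturase, fell too (-0.81 ± 0.20 (SE), adjusted p = 0.0141; 0.0602 without library 9). Both were called with sex and age as terms (0.0440 and 0.0240). Of 21 cholesterol genes 1 rose, Sc5d (0.67 ± 0.16 (SE), adjusted p = 0.00788), of 14 glucose-responsive genes 1 fell, Rgs16 (-0.98 ± 0.27 (SE), adjusted p = 0.0223; 0.0659 without library 9), and of 48 antioxidant genes 1 rose, Txn1 (0.58 ± 0.16 (SE), adjusted p = 0.0257; 0.187 without library 9). Txnip, which responds to glucose, gave 0.48 ± 0.30 (0.344).

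Leptin signalling is the pathway touched by the ob allele. Lep was hardly seen in β cells (3 counts over the 9 ob/+ and 5 over the 21 ICR libraries) and was not tested. Of 17 tested members 2 fell (1.83% of all genes did), both transcription factors of the pathway. No member was called within TRIzol, with sex and age, without libraries above 20% acinar or without library 9. Stat3 ran from 85.2 to 164.4 CPM (median 111.7) in ob/+ and from 109.7 to 232 CPM (median 149.7) in ICR (-0.58 ± 0.17 (SE), adjusted p = 0.0270, edgeR) and Stat5a from 5.80 to 13.6 CPM (median 10.1) in ob/+ and from 6.795 to 21.4 CPM (median 12.6) in ICR (-0.60 ± 0.18 (SE), adjusted p = 0.0381). Leaving out single libraries ended the calls, 3 for Stat3 (up to 0.0915) and 8 for Stat5a (up to 0.0773). Lepr, the receptor, was at 0.0156 to 2.18 CPM (median 1.02) in ob/+ and from 0.227 to 3.97 CPM (median 0.834) in ICR (0.16 ± 0.52 (SE), adjusted p = 0.890), a low level in both groups. In genes for which BTBR is known to carry a variant or a diabetes locus, none of 4 was called in the main fit: Itpr3 gave -0.58 ± 0.19 (0.0548), Disc1 2.05 ± 0.995 (0.208), Stxbp5l 0.86 ± 0.43 (0.216) and Sorcs1 -0.15 ± 1.12 (0.958). With DESeq2, with limma-voom and with 1 Ins2-Cre copy 1 of the 4 was called lower. Without the extraction term 1 was called lower and 1 higher. For Itpr3, the IP3 receptor that is altered in this strain, all 9 ob/+ libraries were below the ICR median, from 3.58 to 9.30 CPM (median 4.81) in ob/+ and from 4.51 to 15.4 CPM (median 9.96) in ICR.

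DNA that flanks a selected allele can come from another strain, and the 10 Mb on each side of Lep (chr6:29060221-29073876, GRCm38.p6) were counted. The comparison was with ICR, so the share called cannot show whether DNA there came from BTBR or from another strain. Of 97 tested genes there 5 were called (5.15%, against 5.2% overall): Tspan33, Chchd3 and Bpgm higher, Slc13a4 and Lrguk lower. Tspan33, a tetraspanin, ran from 19.9 to 39.6 CPM (median 25.95) in ob/+ and from 12.2 to 25.53 CPM (median 17.98) in ICR (0.62 ± 0.14 (SE), adjusted p = 0.00708, edgeR). Across 362 windows of 5 Mb with at least 15 tested genes, 4 windows had the largest shares called. On chromosome 2, 8 of 24 genes from 175 to 180 Mb were called (33.3%), among them Gm14295 (1.25 ± 0.29 (SE), adjusted p = 0.00788) and Zfp971 (0.76 ± 0.20 (SE), adjusted p = 0.0176), members of a cluster of near-identical zinc-finger genes whose reads the counting may divide wrongly. On chromosome 12, 6 of 27 from 55 to 60 Mb were called (22.2%), with Srp54a (0.77 ± 0.19 (SE), adjusted p = 0.0104) and Srp54b (0.74 ± 0.18 (SE), adjusted p = 0.00979), copies of the signal recognition particle subunit, and the copies Fam177a and Fam177a2, which carry the same doubt. On chromosome 18, 5 of 24 from 80 to 85 Mb (20.8%) were called, led by Hsbp1l1 (1.43 ± 0.27 (SE), adjusted p = 0.000945). On chromosome 1, 8 of 39 from 180 to 185 Mb (20.5%) were called, with Lefty1 and Degs1, the last enzyme of ceramide synthesis, which ran from 149 to 321 CPM (median 263) in ob/+ and from 92.1 to 166 CPM (median 143.3) in ICR (0.80 ± 0.12 (SE), adjusted p = 2.86e-05).

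Genes that fell most, among those of at least 10 CPM and with all ob/+ libraries below the ICR median, were led by Aox1, an aldehyde oxidase. Aox1 ran from 1.48 to 11.01 CPM (median 2.99) in ob/+ and from 4.60 to 46.7 CPM (median 17.7) in ICR (-2.72 ± 0.47 (SE), adjusted p = 0.000195, edgeR), with 2 ob/+ libraries inside the ICR range, and it was called in TRIzol libraries (0.0110). Pdlim4, an actin-associated LIM protein, ran from 0.0907 to 6.92 CPM (median 2.78) in ob/+ and from 6.90 to 17.2 CPM (median 11.4) in ICR (-1.69 ± 0.39 (SE), adjusted p = 0.00708). Palld, the actin-bundling protein palladin, ran from 3.76 to 7.50 CPM (median 5.57) in ob/+ and from 2.62 to 20.1 CPM (median 13.4) in ICR (-1.16 ± 0.23 (SE), adjusted p = 0.00112; 0.00292 in TRIzol). Hmga1, a chromatin protein, ran from 6.08 to 23.3 CPM (median 13.6) in ob/+ and from 12.7 to 39.8 CPM (median 24.99) in ICR (-1.12 ± 0.22 (SE), adjusted p = 0.00105) and kept its call with sex and age (0.0420). Pi4kb, a Golgi lipid kinase that overlaps Zfp687, stood at 5.94 to 37.4 CPM (median 21.04) in ob/+ and from 26.9 to 69.8 CPM (median 40.4) in ICR (-1.17 ± 0.26 (SE), adjusted p = 0.00584). Crocc (-1.43), Asphd2 (-1.18) and B3gnt9 (-1.17 on the log2 scale) were called under every single omission. Nacad (-1.34 ± 0.41 (SE), adjusted p = 0.0410) and Dlgap3 (-1.12 ± 0.35 (SE), adjusted p = 0.0431) were lost under 11 and 13 of them (up to 0.115 and 0.145).

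Immune genes gave few calls. None of 35 interferon response genes was called (median -0.08), at a share of 5.2% over all genes, and Irf1 came nearest with -0.62 ± 0.21 (adjusted p = 0.0628, edgeR). Of 26 MHC class I genes H2-Q4 fell and H2-Q1 rose. H2-Q4 ran from 9.79 to 43.6 CPM (median 21.9) in ob/+ and from 33.2 to 71.7 CPM (median 45.1) in ICR (-1.17 ± 0.27 (SE), adjusted p = 0.00708). H2-Q1 gave 0.93 ± 0.29 (SE), adjusted p = 0.0491, lost under 17 single omissions (up to 0.178). These are near copies of each other and differ by haplotype between strains, so mapping to one genome may divide their reads unequally. No MHC class II gene passed the test, while all 11 fitted folds were above 0 and the median was 1.49. H2-Eb1 ran from 1.07 to 46.8 CPM (median 5.62) in ob/+ and from 0.125 to 16.8 CPM (median 3.901) in ICR (2.01 ± 0.66 (SE), adjusted p = 0.0591), and the groups overlapped. The myeloid markers, which include cells that carry class II, had 20 of 20 folds above 0 with a median of 1.05, and 1 called, Fcer1g (1.84 ± 0.56 (SE), adjusted p = 0.0410), lost under 8 single omissions (up to 0.0875). A term for the myeloid share was chosen after seeing the data. With it the class II median was 0.85, and 2 of the 11 were called: Cd74, and H2-Ab1 (1.02, adjusted p = 0.0157, edgeR). The myeloid markers themselves kept a median of 0.74 with that term, and 3 of 20 were called. The term thus did not remove the myeloid signal, and whether class II goes beyond it was not tested.

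Genes of progenitors and of dividing cells were read against the 3.37% of all genes that rose. Of 28 proliferation genes 2 rose (Cdc20 and Rrm2), none fell, and 26 fitted folds were above 0 (median 0.70). Rrm2, the ribonucleotide reductase subunit, ran from 6.98 to 28.96 CPM (median 11.9) in ob/+ and from 2.80 to 17.6 CPM (median 5.32) in ICR (1.003 ± 0.27 (SE), adjusted p = 0.0212, edgeR), and Cdc20, the mitotic activator, from 4.94 to 30.8 CPM (median 10.8) in ob/+ and from 1.39 to 16.8 CPM (median 5.97) in ICR (1.29 ± 0.35 (SE), adjusted p = 0.0202). Without ob/+ library 1, from a mouse of 56 days, their adjusted p was 0.0648 and 0.0606; Rrm2 was also lost without library 9 (0.0639). With sex and age as terms no member was called, and the median was 0.82; 7 were called with DESeq2, 8 with limma-voom, 7 with 1 Ins2-Cre copy and 5 without libraries above 20% acinar. Of 22 progenitor genes 3 rose: Myc, Slc5a10 and Gast. Myc ran from 3.18 to 18.6 CPM (median 9.29) in ob/+ and from 1.05 to 8.70 CPM (median 2.93) in ICR (1.298 ± 0.34 (SE), adjusted p = 0.0180) and was called in TRIzol libraries (0.0132), with every ob/+ library above the ICR median. Slc5a10 and Gast, both mostly under 5 CPM, were lost without library 9 (0.157 and 0.387). The median of the progenitor list was 0.51, and with an acinar term it was -0.08, on the other side of 0. None of 22 disallowed genes, which β cells normally keep low, was called (median 0.61, and 0.10 with an acinar term, 0.08 without libraries above 20% acinar and 0.16 with sex and age). Of 25 dissociation-response genes, 1 rose, Nr4a2 (1.17 ± 0.32 (SE), adjusted p = 0.0239; 0.111 without library 9).

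Among the marker lists, acinar genes had no call but all 25 fitted folds above 0 and a median of 2.25, which was -0.36 without libraries above 20% acinar. With the acinar term 6 of the 25 were called higher and the median was 0.48. That term thus did not remove the acinar signal in full, which limits the other fits with an acinar term given above. Duct markers had 2 of 13 called, the keratins Krt18 (0.74 ± 0.16 (SE), adjusted p = 0.00553, edgeR) and Krt7 (0.53 ± 0.16 (SE), adjusted p = 0.0401), which β cells also express, the latter lost under 8 single omissions (up to 0.289). Of 12 alpha markers 1 rose, Ttr (1.60 ± 0.41 (SE), adjusted p = 0.0151; 0.402 without library 9). Calls at very low level were Nkg7 (lymphoid, 1 of 17), Cdh19 (Schwann, 1 of 9) and Hbb-bs (erythroid, 1 of 9), each under 1 CPM in every ob/+ library. The first was higher and the other two lower, and each was lost under 2 to 5 single omissions (up to 0.120, 0.259 and 0.103). No delta, endothelial or stromal marker was called, of 10, 13 and 18. Fitted folds above 0 numbered 9, 0 and 4 in these lists. Their medians were 0.36, -0.72 and -0.43, and 0.30, -1.97 and -0.75 within TRIzol. All endothelial folds were thus below 0, at a share of at most 0.00321% of counts in an ob/+ library and 0.00973% in an ICR library.

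A difference between the sexes in the strain contrast was tested as an interaction over the 30 libraries. No gene of 13401 passed the adjusted threshold in edgeR's quasi-likelihood test, with 925 (6.9%) at an unadjusted p below 0.05, while DESeq2 called 17. Pik3cg, a phosphoinositide 3-kinase of leukocytes, came nearest (adjusted p = 0.182), with a male-minus-female log2 difference of -9.25 in ob/+ and 1.18 in ICR. Its counts are low, and a fitted fold of that size depends on the prior count. Mob1a followed at 0.348, with 1.17 and -0.23. With 4 female and 5 male ob/+ libraries such differences were measured with little precision.

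For scale, the same genes were read in the related groups, without a test: 7 libraries of diabetic BTBR/mix ob/ob mice and 7 of non-diabetic NOD-ICR mice. Among genes high in ob/+, Mapk4 had a median of 41.9 CPM (33.9 to 83.1) in ob/ob and 4.47 CPM (1.72 to 27.9) in NOD-ICR. Gucy2c was at 122 CPM (76.4 to 227) and 16.5 CPM (6.90 to 29.7), against 13.3 in ob/+. Oxtr stood at 58.8 and 9.99 CPM, Dio1 at 13.7 and 4.86, Lgmn at 97.7 and 40.7, and Rgs2 at 50.9 and 93.4, as medians in the same order. Lefty1 had 4.64 CPM (0.156 to 6.37) in ob/ob and 10.4 (7.38 to 13.6) in NOD-ICR, so it was also present in that background. Rbm45 was at 12.04 and 0.995 CPM and Paip1 at 21.18 and 5.09, so both were near the ICR level in NOD-ICR.

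The stress response genes among them had higher medians in ob/ob than in ob/+, and Chac1, Trib3 and Eif4ebp1 were also higher in non-diabetic NOD-ICR than in ob/+. Asns had medians of 321 CPM in ob/ob and 184 in NOD-ICR, Chac1 55.7 and 64.1, Trib3 33.6 and 32.7, and Eif4ebp1 66.8 and 45.2. Aldh1l2 had 47.7 and 25.8, and Spc25 291 and 336. Of the genes low in ob/+, Aox1 had medians of 1.54 and 7.88 CPM, Nacad 1.10 and 4.56, Dlgap3 1.38 and 3.41, and Asphd2 1.67 and 8.15. H2-Q4 stood at 44.8 and 62.9 CPM, Hyou1 at 268 and 229, Pi4kb at 14.9 and 16.1, and B3gnt9 at 3.89 and 10.7. Pdlim4 was at 6.42 and 8.85, Palld at 9.52 and 12.4, Hmga1 at 15.1 and 33.003, and Crocc at 5.35 and 4.58. These groups differ from ob/+ in glucose, age, extraction mix and background at once, and those parts cannot be told apart.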

How the data were processed

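RNA-seq of flow-sorted mCherry-positive β cells was used. Islets were purified on a density gradient and trypsinized before the sort, RNA extraction was by TRIzol or by Qiagen column, and cDNA was made with the SMART-Seq v4 kit and indexed with Nextera XT, all per the labels' protocols. Such libraries carry no strand. Per the submitters' processing notes, bcl2fastq 2.20.0.422, Bowtie 1.2.2 and RSEM 1.3.0 were used with mm10. The deposited table holds RSEM's expected counts for 20306 genes in 63 libraries, 48.5% of them not whole, and they were rounded. The authors' normalized table was not used here. Of the gene names 18963 matched RefSeq (GRCm38.p6, the assembly of mm10) by symbol and 1262 by synonym, and 81 stayed as deposited.

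Genes were kept with edgeR 4.0.16 filterByExpr by group (R 4.3.3) and scaled with TMM, and CPM are on that scale. A robust quasi-likelihood fit over all 63 libraries held 9 group means and an extraction term. Benjamini-Hochberg adjustment ran over 16092 genes, with calls at 0.05, and SE came from the F statistic. DESeq2 1.42.0 and limma 3.58.1 (voom) were alternatives. The interaction with sex was fitted on the 30 libraries. Shares of counts were tested exactly on the log2 scale, permuting groups within extraction. The fit was also run on simulated data. These had the same dispersion for every gene and no effect of extraction or acinar content, so they do not show how the fit behaves under those. The total count per library, 23894167 to 65518931 in ob/+ and 28402805 to 44485028 in ICR, sets the counting precision, which is poorest for low genes. That precision was not compared with the spread between libraries. Positions are GRCm38.p6. Near copies and overlapping genes are counted with doubt.

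Named genes include the 12 largest rises and falls with a group mean of at least 10 CPM and all ob/+ libraries on one side of the ICR median. The mean was that of the higher group. Also named are up to 4 called genes (or the 2 of smallest p) per list and a set of anchors. The 6 most abundant calls and calls in the 4 densest windows and near Lep are named too. A search for genes of at least 5 CPM in one group and at most 0.1 CPM in every library of the other found none. Genes added after their values were seen are said to be so; all 25 stress response genes were also read out in this way. Members and lists were chosen with earlier results of these data known. The alternatives were other scalings, filters, models, covariates and subsets and the omission of each library; fits on TRIzol libraries with 1 Ins2-Cre copy, on female TRIzol libraries and with a myeloid term were chosen after seeing the data. Replicate numbers follow only the order of the samples. The result for 1 gene is not reported here.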

Additional observations from a re-analysis of the deposited data

Results flagged for a closer look

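Of 82 values checked in the 9 ob/+ libraries, 8 had one library standing apart from the other 8 by Dixon's test, at a level that chance alone passes in about 1 in 20 groups. Library 9, the Qiagen library from the mouse with a glucose of 271 mg/dl, was the highest for Dnajc3 (1183 CPM) and Rplp0 (884 CPM) and the lowest for Mafa (31.3 CPM, against an ob/+ median of 113 CPM). Library 7 was the lowest for Lefty1 (0.0219 CPM, against a median of 3.83 CPM). Library 5, with 39.9% acinar counts, was the highest for Txnip (415 CPM against a median of 139.7 CPM). Library 1 was the highest for Ppp1r15a (116 CPM), for total counts (65518931) and for the myeloid marker share (0.0486%). No difference between the sexes in the strain contrast passed the threshold in edgeR's test.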

How the results depend on the processing

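The count of 836 called genes was within 1.5 times under the other scalings, filters, acinar, myeloid and S-number terms, 1 Ins2-Cre copy and limma-voom. The same held without the extraction term and with only the ob/+ and ICR libraries fitted. A similar count did not mean the same genes. In the limma-voom fit and in the last 2 of these fits, many of the 836 were not called. Nearly all that were tested there kept their direction. The count was 1279 with DESeq2 and 324 with a 2-fold minimum. It was 93 in TRIzol libraries, 117 with sex and age and 175 at 80 to 230 days, where fewer libraries or more terms were fitted. It was 134 in TRIzol libraries with 1 Ins2-Cre copy and 42 in female TRIzol libraries, both chosen after seeing the data. Omitting single libraries gave 386 to 1187. The sex difference had 17 calls with DESeq2 and 0 to 3 when single libraries were omitted. As a share of TMM-scaled library size the insulin difference was 0.70 on the log2 scale (exact p = 0.0144). The acinar and myeloid differences rose with it, from 0.54 to 1.07 and from 0.34 to 0.87. The scaling acts alike on every share of a library, so the change was not particular to insulin. Why the scaling factors differed was not tested. Of the 118 named genes called, 42 stayed so within TRIzol and 44 (of 115 tested there) with sex and age, all with their direction. In Qiagen libraries, with 1 ob/+ library, 7 turned: Myc -0.11, Nkg7 -2.72, Ckb 0.42, Gm14295 -0.93, Gm14288 -0.52, Zfp971 -0.22 and Gm14391 -0.60. No paired analysis was possible because the groups are separate mice of different strains. The labels carry no replicate numbers, and those used here only follow sample order. The limits are the 4 TRIzol ICR libraries, 3 of them from older mice, and the single Qiagen ob/+ library: extraction, age and strain are only partly separable.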
